A study of Mus musculus with 18 samples.

Results

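The mouse liver carries a small set of genes that bind, sense and move zinc, and 7 of them were followed here: the metallothioneins Mt1 and Mt2, the zinc-sensing transcription factor Mtf1, the exporters Slc30a1 and Slc30a10, and the importers Slc39a8 and Slc39a14. They were chosen by gene name from the 54532 genes of the expression table, and all 7 were among the 10216 genes with a mean of at least 1 FPKM (fragments per kilobase of gene length, scaled to sequencing depth) over the 18 mice, which were the genes tested. Metallothioneins are small cysteine-rich proteins that hold zinc and copper in the cell. MTF1 binds metal response elements in promoters when free zinc is high and switches on metallothionein genes and the zinc exporter gene Slc30a1. SLC30 proteins carry metal out of the cytosol and SLC39 proteins carry it in, and in the liver SLC30A10, SLC39A8 and SLC39A14 are known above all for moving manganese.

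Liver RNA was sequenced from 6 mice in each of 3 groups of male C57BL/6J mice, 6 weeks old at arrival. Normal control (NC) mice ate a standard diet, high-fat diet (HFD) control mice ate the high-fat diet for 14 weeks and through the treatment period that followed, and SZ-A mice ate the same high-fat diet and received SZ-A, an alkaloid extract of mulberry twig, in that period. The treatment period is 8 weeks in the deposited description and 6 weeks in the methods, and the dose and route given to the sequenced SZ-A mice are not given in the sources used here. All mice were fasted overnight before the livers were taken. The mouse NC6 has a title of the chow group and a diet label of high-fat diet, and it was kept in NC by its title. A diet-induced model of this kind has no genetic change, and each sample was the liver of a separate mouse.

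Fragments assigned to genes totalled 17163191 to 20493907 per mouse. The 10 hepatocyte markers summed to a median of 48382 FPKM in NC mice, 35522 in HFD mice and 39664 in SZ-A mice, which fits the tissue label. The sum of the 6 T cell markers stayed between 0.587 and 2.53 FPKM per mouse in the 18 mice. Of the genes tested, 20.2% passed the test in HFD against NC mice, 0.147% in SZ-A against HFD mice and 9.60% in SZ-A against NC mice. A gene passed where its limma adjusted p was under 0.05 and its level differed by more than 1.2-fold. The split was 1092 genes higher and 970 lower in HFD than NC mice, and became 2100 and 334 when every mouse was scaled to a common sum of FPKM. In SZ-A against HFD mice 8 genes were higher and 7 lower, against 10 and 206 with that scaling. Differences below are log2 differences of FPKM + 0.1, a scale that shrinks the changes of low genes.

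Metal response elements carry the core TGCACNC or TGCGCNC, where N is any base, and the promoters of the metallothioneins and of Slc30a10 are shown because Mt1 and Mt2 varied most and Slc30a10 differed between diets. The RefSeq promoter table (GRCm38.p6) held 6 of the 7 genes. The sequences below are the 250 bases before the RefSeq start on the plus strand, at chr8:94178839-94179088 for Mt1, chr8:94172368-94172617 for Mt2 and chr1:185454598-185454847 for Slc30a10. Capitals mark each match to the core on either strand.
Mt1: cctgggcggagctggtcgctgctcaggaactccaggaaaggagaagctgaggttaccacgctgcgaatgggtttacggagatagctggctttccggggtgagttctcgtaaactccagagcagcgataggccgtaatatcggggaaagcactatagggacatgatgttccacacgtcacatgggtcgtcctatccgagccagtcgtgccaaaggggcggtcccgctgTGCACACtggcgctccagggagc
Mt2: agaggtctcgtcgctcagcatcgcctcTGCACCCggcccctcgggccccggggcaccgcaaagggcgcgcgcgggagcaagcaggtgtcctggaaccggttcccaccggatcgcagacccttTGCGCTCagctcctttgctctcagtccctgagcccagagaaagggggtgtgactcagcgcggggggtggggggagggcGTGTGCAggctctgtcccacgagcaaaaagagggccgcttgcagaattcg
Slc30a10: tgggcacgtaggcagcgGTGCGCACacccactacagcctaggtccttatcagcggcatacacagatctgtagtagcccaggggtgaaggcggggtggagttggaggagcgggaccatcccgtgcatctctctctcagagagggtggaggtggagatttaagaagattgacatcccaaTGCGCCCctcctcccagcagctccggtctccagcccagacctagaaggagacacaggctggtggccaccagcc
In these 250 bases Mt1 held 1 match, Mt2 held 3 and Slc30a10 held 3, of which 2 are the same letters read on opposite strands, shifted by a single base. Slc30a1 held 1 and Mtf1 held 0, and of the 2 starts listed for Slc39a8 one held 0 and the other 1. Of 32817 promoters, 21.4% held at least 1 match in such a window and 1.26% held at least 3. The 50 bases after the start were counted as well once those matches had been seen, and the 300 bases together then held 3 matches for Mt1, 4 for Mt2, 2 for Slc30a1 and 3 for Slc30a10, against a share of 1.97% of all promoters with at least 3. For Mt1, 2 of the 3 lay after the RefSeq start, at positions 3 and 21, so its count depends on the start and window used. A match describes the letters and is not a measured binding site.

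Mt1 and Mt2 were the most variable of these genes from mouse to mouse, and neither differed between groups beyond that spread. Mt1 (ENSMUSG00000031765, chr8:94179082-94180327, plus strand) ran in NC mice from 57.1 FPKM through a median of 115 to 1250, in HFD mice from 50.5 through 142 to 289, and in SZ-A mice from 21.8 through 88.2 to 178. The 3 groups overlapped, and the highest level was in the mouse NC5 and the lowest in SZ-A1, 57.4-fold apart. The level behind these extremes was 484 to 25232 fragments, so counting error was small against the range. Over all genes tested, 0.793% had a larger SD within groups than the 1.32 log2 units of Mt1, and the median gene had 0.21.

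Mt2 (ENSMUSG00000031762, chr8:94172664-94173568, plus strand), the neighbouring gene for the other main liver metallothionein, showed the same extremes at far lower FPKM. It ran from 0.631 through a median of 1.28 to 38.5 FPKM in NC mice, from 0.459 through 2.93 to 8.13 in HFD mice and from 0.191 through 0.892 to 1.85 in SZ-A mice. NC5 was again highest and SZ-A1 lowest, 202-fold apart, and the groups overlapped, although every SZ-A mouse lay below the HFD mean of 3.19. Only 2 to 367 fragments per mouse stood behind these values. Of the 588 exon bases annotated for Mt2, 432 (73.5%) also belong to Gm45774, an antisense gene on the opposite strand at chr8:94170748-94173412. Whether counting used strand is not given in the sources used here, and without strand the fragments of such a pair cannot be told apart. Gm45774 itself was listed at 0 to 0.108 FPKM, from 32 fragments over all mice together. The Mt2 FPKM divides by all 588 bases, shared ones included. The part of this overlap in the low Mt2 values was not tested. The exon length used for Mt1, 1246 bases, equalled its whole span, introns included, and enters its FPKM.

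**Figure D1:**
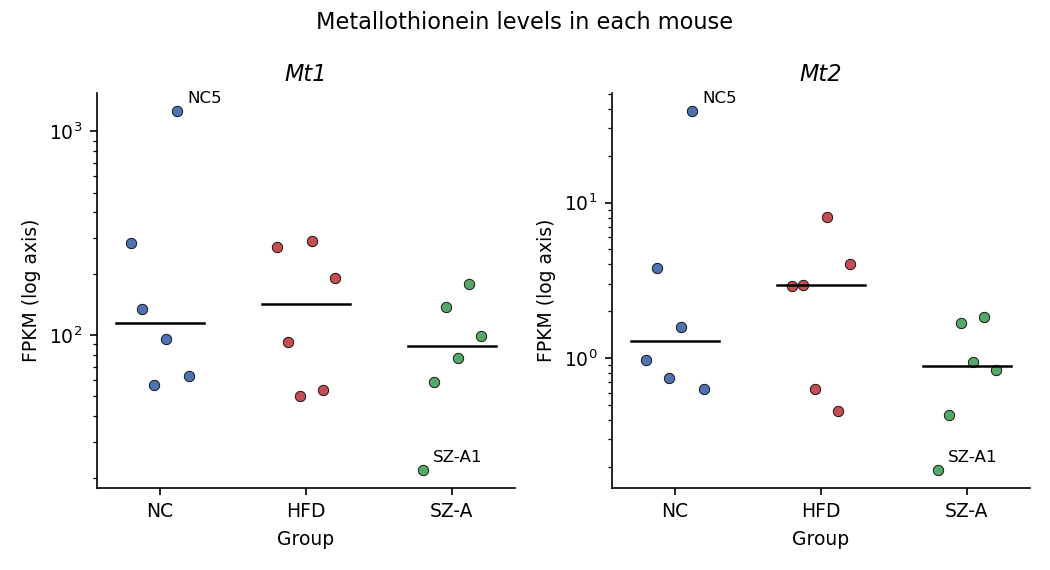
Levels of Mt1 (left) and Mt2 (right) in FPKM on log axes, 1 point per mouse and a line at the median of each group of 6. NC5 is highest (1250 and 38.5 FPKM) and SZ-A1 lowest (21.8 and 0.191 FPKM) for both genes, and the groups overlap.

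The Mt1 mean was 314 ± 466 FPKM in NC mice, 158 ± 107 in HFD mice and 95.5 ± 56.0 in SZ-A mice (SD, n = 6). The difference of HFD from NC mice was -0.35 log2 units (SE 0.72, 95% interval -1.904 to 1.196, limma adjusted p = 0.762), and it turned to 0.24 without NC5. SZ-A differed from HFD mice by -0.66 (SE 0.56, interval -1.88 to 0.56, limma adjusted p = 0.629) and from NC mice by -1.01 (SE 0.71, interval -2.55 to 0.52, limma adjusted p = 0.404). The intervals of Mt1 therefore hold both a fall and a rise of more than 1.2-fold in each comparison.

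For Mt2 the means were 7.71 ± 15.1 FPKM in NC mice, 3.19 ± 2.80 in HFD mice and 0.988 ± 0.661 in SZ-A mice (SD, n = 6). HFD differed from NC mice by -0.06 log2 units (SE 0.94, limma adjusted p = 0.970), and by 0.74 without NC5. The difference of SZ-A from HFD mice was -1.32 (SE 0.66, interval -2.76 to 0.11, limma adjusted p = 0.376, exact permutation p = 0.108). SZ-A differed from NC mice by -1.39 (SE 0.86, interval -3.24 to 0.47, limma adjusted p = 0.338). The comparisons share the HFD or the NC mice, so their values are not independent of each other.

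Within each group, mice high in Mt1 were mostly high in Mt2. Pearson's r of the log2 values was 0.86 in NC mice (Spearman's rho 0.77), with an exact permutation p of 0.0472 and 0.142 after adjustment over the 12 relations computed between pairs of these genes. In HFD mice r was 0.89 (rho 0.77, exact permutation p = 0.0208, adjusted 0.125), and in SZ-A mice 0.97 (rho 0.94, exact permutation p = 0.00417, adjusted 0.05). For rho the exact permutation p was 0.103 in NC and in HFD mice and 0.0167 in SZ-A mice. Without the 2 mice farthest from the Mt1 median r was 0.98 in NC mice, 0.53 in HFD mice and 0.93 in SZ-A mice. The HFD mice left out were HFD3 and HFD5. Few mice over a narrower range of Mt1 remained, so these r cannot show what a relation rested on. Mt1 and Slc39a14 had r of -0.88 in NC mice (rho -0.49, exact permutation p = 0.0389, adjusted 0.142), which turned to 0.66 without NC1 and NC5. Their r was -0.04 in HFD mice and 0.72 in SZ-A mice. None of the 12 relations had an adjusted p under the threshold of 0.05. The ratio of Mt1 to Mt2 in FPKM ran from 31.4 in an HFD mouse to 292 in NC1, the mouse that lies off the line of the others. Its Mt2 values carry the overlap with Gm45774 given above, so its size may not be that of the transcripts.

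**Figure D2:**
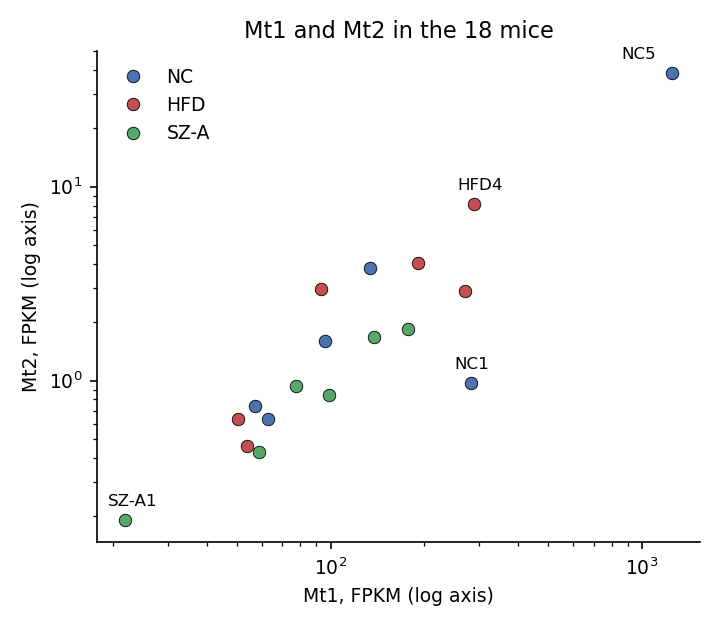
Mt2 against Mt1 in FPKM on log axes, 1 point per mouse, coloured by group. Points rise together from SZ-A1 (21.8 and 0.191 FPKM) to NC5 (1250 and 38.5 FPKM), and NC1 lies below the others at a similar Mt1 level.

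Mtf1, the zinc sensor (ENSMUSG00000028890, chr4:124802104-124849800, plus strand), did not pass the test in any comparison. Its means were 2.30 ± 0.478 FPKM in NC mice, 2.15 ± 0.344 in HFD mice and 2.21 ± 0.241 in SZ-A mice (SD, n = 6), and its lowest level, 1.39 FPKM, was in NC5, the mouse highest in Mt1 and Mt2. The differences were -0.08 for HFD against NC mice, 0.05 for SZ-A against HFD mice and -0.03 for SZ-A against NC mice, with limma adjusted p of 0.763, 0.880 and 0.930. Of its exon bases 8.10% also belong to the opposite-strand coding gene 1110065P20Rik, which stood at 3.54 to 6.86 FPKM, above Mtf1.

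Slc30a1, the plasma membrane zinc exporter (ENSMUSG00000037434, chr1:191906767-191913247, plus strand), ran from 6.42 through a median of 8.99 to 13.5 FPKM in NC mice, from 7.68 through 8.25 to 10.03 in HFD mice and from 6.89 through 9.09 to 10.5 in SZ-A mice. NC5 was highest here too, and the groups overlapped. The differences were -0.10 (SE 0.14) for HFD against NC mice, 0.10 (SE 0.098) for SZ-A against HFD mice and -0.004 (SE 0.15) for SZ-A against NC mice, and the limma adjusted p were 0.664, 0.694 and 0.991. Slc30a1 shares 8.92% of its exon bases with 1700034H15Rik on the opposite strand, a gene listed at no more than 0.0543 FPKM.

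Slc30a10, the manganese exporter (ENSMUSG00000026614, chr1:185454848-185468762, plus strand), was lower in HFD than in NC mice. It ran from 3.36 through a median of 6.18 to 8.07 FPKM in NC mice, from 2.39 through 3.02 to 5.22 in HFD mice and from 2.81 through 3.33 to 7.53 in SZ-A mice. Of the 6 HFD mice, 4 lay below every NC mouse, HFD3 stood apart above the other HFD mice, and SZ-A5 was the high mouse of its group. HFD differed from NC mice by -0.86 log2 units (SE 0.23, interval -1.36 to -0.36, limma adjusted p = 0.0192, exact permutation p = 0.0195), a 1.81-fold lower level between groups. The means were 3.26 ± 1.04 FPKM in HFD and 6.07 ± 1.97 FPKM in NC mice (SD, n = 6). All 6 HFD mice lay below the NC mean, HFD3 least, at 5.22 FPKM. Slc30a10 was the only 1 of the 7 genes to pass in HFD against NC mice (14.3%, against 20.2% of all genes tested).

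The SZ-A mean of Slc30a10 was 4.14 ± 1.77 FPKM (SD, n = 6). SZ-A differed from HFD mice by 0.30 (SE 0.24, interval -0.21 to 0.81, limma adjusted p = 0.595) and from NC mice by -0.56 (SE 0.26, interval -1.12 to 0.00, limma adjusted p = 0.199). Without SZ-A5 the difference from NC mice was -0.74 and passed, with a limma adjusted p of 0.0475. With every mouse scaled to a common sum, which moved the median of all genes in HFD against NC mice from -0.03 to 0.15, the fall of Slc30a10 in HFD mice was -0.67 (limma adjusted p = 0.0481).

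Markers of some cell types moved with the same contrast, in which 20.2% of all genes passed. Of 10 hepatocyte markers 5 (50.0%) were lower in HFD than NC mice, and of 9 stellate cell markers 7 (77.8%) were higher. Of 9 Kupffer cell markers 4 (44.4%) were higher, and of 7 endothelial markers 1 (14.3%), below the share of all genes. The hepatocyte markers Alb, Ttr, Cyp2e1, Hnf4a and Apob did not pass, with differences of -0.47, 0.01, 0.07, -0.28 and -0.22. The summed markers ranged from 30258 to 49460 FPKM in HFD and 44984 to 63654 in NC mice for hepatocytes, from 55.6 to 113 and 46.1 to 64.4 for stellate cells, and from 199 to 384 and 133 to 253 for Kupffer cells. None of the hepatocyte, stellate cell or Kupffer cell markers was at 0 in all mice of a group. Of 5 adipocyte markers only Cfd, which encodes adipsin, was tested, and it rose from 2.91 ± 2.67 FPKM in NC mice to 52.4 ± 43.6 in HFD mice (limma adjusted p = 0.00268, SD, n = 6). The other adipocyte markers stayed near 0, with means of 0.202 and 0.0913 FPKM for Adipoq in NC and HFD mice, and Lep was at 0 in every NC mouse. Their part in the fall of Slc30a10 was not tested, and in whole liver fewer cells of a type and less RNA per cell cannot be told apart. Slc30a10 shares 9.13% of its exon bases with Gm2061 on the opposite strand, which stood at 0.0364 to 0.582 FPKM.

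**Figure D3:**
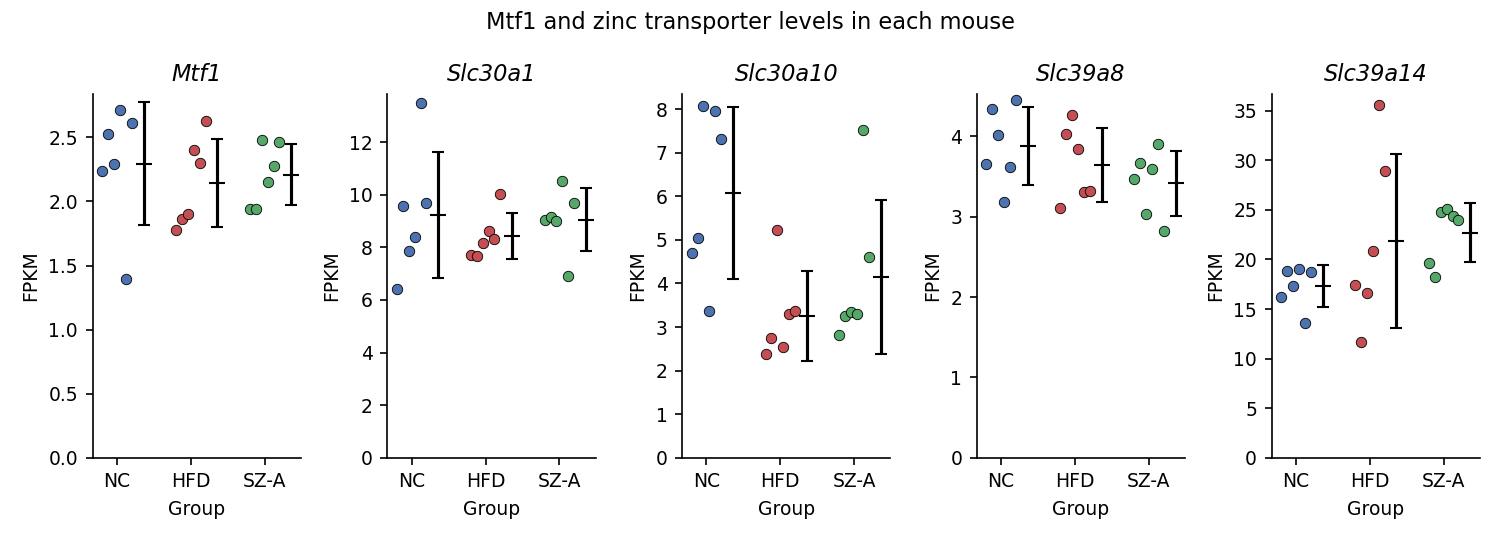
Levels of Mtf1, Slc30a1, Slc30a10, Slc39a8 and Slc39a14 in FPKM on linear axes from 0, 1 point per mouse, with the mean and SD of each group of 6 beside it. For Slc30a10, 4 of 6 HFD mice lie below all NC mice, and for Slc39a14, 5 of 6 SZ-A mice lie above all NC mice.

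Slc39a14, the importer of zinc, manganese and iron that is known to respond to interleukin 6 in liver (ENSMUSG00000022094, chr14:70303469-70351425, minus strand), was higher in SZ-A than NC mice. It ran from 13.6 through a median of 17.999 to 19.1 FPKM in NC mice, from 11.7 through 19.2 to 35.5 in HFD mice and from 18.2 through 24.2 to 25.1 in SZ-A mice. Of the 6 SZ-A mice 5 lay above every NC mouse, while the HFD mice spread over both groups, with HFD5 and HFD6 above all others and HFD2 lowest of the 18. SZ-A differed from NC mice by 0.39 log2 units (SE 0.11, interval 0.15 to 0.62, limma adjusted p = 0.0395, exact permutation p = 0.0108), with means of 22.7 ± 2.96 and 17.3 ± 2.11 FPKM (SD, n = 6), a 1.31-fold higher level. It was the only 1 of the 7 genes to pass in that comparison (14.3%, against 9.60% of all genes tested).

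Markers of some cell types moved between SZ-A and NC mice too, a comparison in which 9.60% of all genes passed. Of 10 hepatocyte markers 2 were lower, and of 9 stellate cell markers 3 (33.3%) were higher. Of 9 Kupffer cell markers 1 (11.1%) was higher, near the share of all genes. Of 7 endothelial markers 0 passed, and of 2 cholangiocyte markers tested 1, Sox9, was lower. The summed markers ranged in SZ-A mice from 35822 to 61762 FPKM for hepatocytes, from 51.1 to 70.5 for stellate cells and from 218 to 293 for Kupffer cells, each overlapping the NC range given above. Their part in the rise of Slc39a14 was not tested.

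The HFD mean of Slc39a14 was 21.9 ± 8.81 FPKM (SD, n = 6), which differed from NC mice by 0.25 (SE 0.22, interval -0.22 to 0.72, limma adjusted p = 0.452) and from SZ-A mice by less than its own spread (SZ-A minus HFD 0.14, SE 0.22, interval -0.34 to 0.62, limma adjusted p = 0.818). The rise in SZ-A against NC mice passed the test in 13 of 23 alternatives. It did not pass without NC1, NC3, SZ-A3, SZ-A4, SZ-A5 or SZ-A6, each left out alone, with differences of 0.36 to 0.39 and limma adjusted p of 0.0598 to 0.0913.

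Slc39a8, a close relative of Slc39a14 that imports zinc and manganese (ENSMUSG00000053897, chr3:135825279-135888572, plus strand), had means of 3.88 ± 0.481 FPKM in NC mice, 3.64 ± 0.464 in HFD mice and 3.41 ± 0.408 in SZ-A mice (SD, n = 6). The groups overlapped, and the 18 mice lay between 2.83 and 4.45 FPKM, 1.58-fold apart, the smallest fold range of the 7 genes. The differences were -0.09 for HFD against NC mice, -0.09 for SZ-A against HFD mice and -0.18 for SZ-A against NC mice, with limma adjusted p of 0.588, 0.723 and 0.300.

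No member passed the test in SZ-A against HFD mice (0 of 7, with 0 at an unadjusted p under 0.05 and 0 with limma's voom on whole fragments), where 0.147% of all genes passed. The paper, with DESeq2, reports many times more genes passing in this comparison, and that test was not repeated here. The median difference over the 7 genes was -0.09 in HFD against NC mice, 0.05 in SZ-A against HFD mice and -0.18 in SZ-A against NC mice, beside -0.03, 0.03 and -0.01 over all genes tested. By mean FPKM over the 18 mice the order was Mt1 (189), Slc39a14 (20.6), Slc30a1 (8.90), Slc30a10 (4.49), Mt2 (3.96), Slc39a8 (3.65) and Mtf1 (2.22). By median it was Mt1 (97.6), Slc39a14 (18.9), Slc30a1 (8.81), Slc39a8 (3.63), Slc30a10 (3.36), Mtf1 (2.29) and Mt2 (1.28). The Mt2 mean includes NC5 at 38.5 FPKM. Across different mice the ranges of Mt1 and Slc39a14 overlapped, as did those of Slc39a14 and Slc30a1 between 11.7 and 13.5 FPKM. Within every mouse, however, Mt1 was above Slc39a14 and Slc39a14 above Slc30a1. The closest were SZ-A1 (Mt1 21.8, Slc39a14 19.6 FPKM) and NC5 (Slc39a14 13.61, Slc30a1 13.49 FPKM). Slc30a1 and Slc30a10 overlapped between 6.42 and 8.07 FPKM, and Slc30a10 was the higher in NC3 and SZ-A5. Slc30a10, Mt2 and Slc39a8 overlapped widely. Mtf1 reached 2.71 FPKM, below the lowest Slc39a8 value of 2.83 FPKM.

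**Figure D4:**
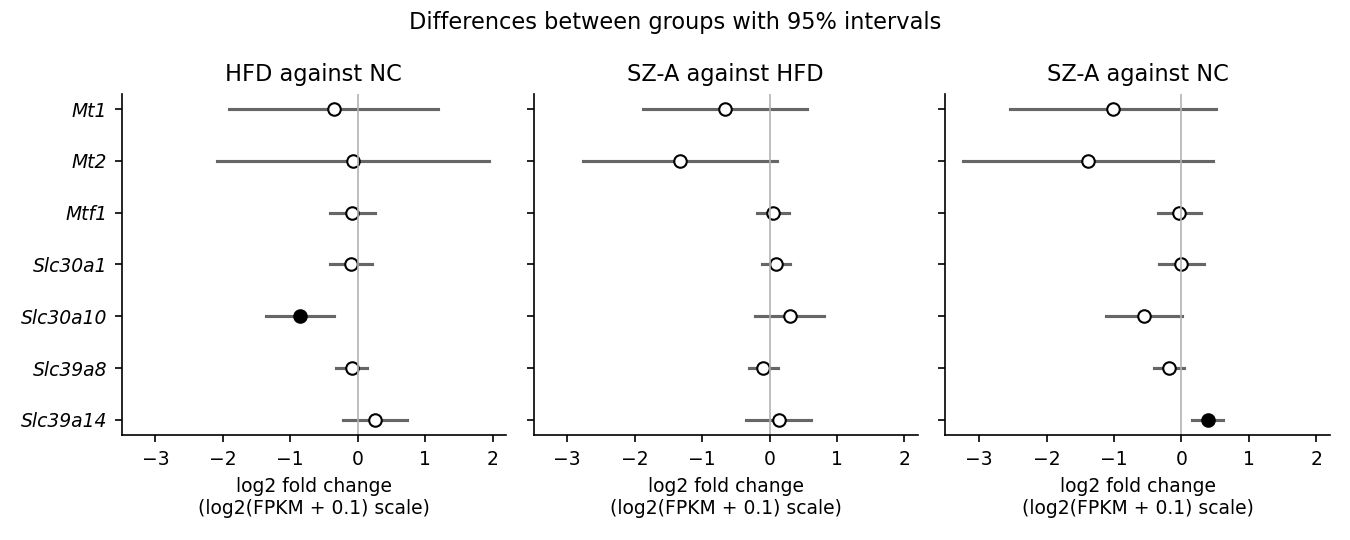
Differences between groups on the log2(FPKM + 0.1) scale (points) with 95% intervals (lines) for the 7 genes in 3 comparisons, filled where the test was passed. Slc30a10 in HFD against NC mice (-0.86) and Slc39a14 in SZ-A against NC mice (0.39) are filled, and the intervals of Mt1 and Mt2 are the widest.

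Of 22 other zinc transporter and metallothionein genes, 12 were tested. In HFD against NC mice 2 rose and 0 fell, which is 16.7% of those tested and below the 20.2% of all genes. Slc39a1, an importer of the plasma membrane, rose from 32.8 ± 3.69 to 41.4 ± 4.82 FPKM (difference 0.34, limma adjusted p = 0.0252), and Slc39a11, an importer of Golgi and nuclear membranes, from 5.96 ± 1.06 to 7.97 ± 1.34 FPKM (difference 0.41, limma adjusted p = 0.0457, SD, n = 6). In SZ-A against HFD and SZ-A against NC mice 0 passed with limma (3 and 2 at an unadjusted p under 0.05, and 0 and 0 with voom). Of all genes 0.147% and 9.60% passed there with limma. The list's median difference was 0.11, -0.06 and -0.05 in the 3 comparisons. The metallothionein gene Mt4 was at 0 in all mice, and Mt3 did not exceed 0.0538 FPKM.

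Genes of neighbouring metal pathways were counted the same way, in lists so short that a share near the 20.2% of all genes is no result about the list. Of 5 other MTF1 targets 4 were tested and 1 (25.0%) passed in HFD against NC mice. Gclc, the catalytic subunit of the rate-limiting enzyme of glutathione synthesis, rose from 56.8 ± 17.7 FPKM in NC to 92.0 ± 11.4 in HFD mice (difference 0.76, limma adjusted p = 0.0216). Of 11 copper genes 8 were tested and 2 (25.0%) rose in HFD against NC mice, the copper chaperone Atox1 by 0.33 (limma adjusted p = 0.0327) and the copper transporter Slc31a2 by 0.43 (limma adjusted p = 0.0341). Both lists had 0 passing in SZ-A against HFD and SZ-A against NC mice with limma and with voom. The limma shares of all genes there were 0.147% and 9.60%, so 0 of so few genes is no result about the lists. At an unadjusted p under 0.05 there were 0 and 1 MTF1 targets, and 2 and 3 copper genes. Of 4 enzymes that use manganese, 2 (50.0%, beside 20.2% of all genes) passed in HFD against NC mice. Arg1 of the urea cycle was lower in HFD than NC mice by -1.14 (limma adjusted p = 0.00191) and Glul, glutamine synthetase, higher by 0.62 (limma adjusted p = 7.62e-04). In SZ-A against NC mice the differences were -1.04 (limma adjusted p = 0.00908) and 0.61 (limma adjusted p = 0.00197), 50.0% beside 9.60% of all genes. Against HFD mice 0 passed (0 at an unadjusted p under 0.05), beside 0.147% of all genes.

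Metallothionein genes are also known to respond to glucocorticoids and to interleukin 6, and Slc39a14 to the latter. Of 11 glucocorticoid response genes 3 (27.3%, beside 20.2% of all genes) fell in HFD against NC mice, with Tat, which degrades tyrosine, lower by -1.47 (limma adjusted p = 0.00297), Errfi1 by -0.48 (limma adjusted p = 0.0151) and Tsc22d3 by -0.77 (limma adjusted p = 0.0327). In SZ-A against NC mice 1 (9.09%, beside 9.60% of all genes) rose, Cebpb, by 0.57 (limma adjusted p = 0.0301). Against HFD mice 0 passed (3 at an unadjusted p under 0.05), beside 0.147% of all genes. Of 16 acute phase genes of interleukin 6, 8 (50.0%) rose in HFD against NC mice, led by Lcn2, which binds siderophores, by 4.34 (limma adjusted p = 2.53e-04), Steap4, a metalloreductase, by 2.17 (limma adjusted p = 3.37e-04), Orm2 by 3.25 (limma adjusted p = 6.16e-04) and Saa1 by 3.64 (limma adjusted p = 0.00435). In SZ-A against NC mice 3 (18.8%, beside 9.60% of all genes) rose, Steap4, Lcn2 and Socs3. Against HFD mice 0 passed (0 at an unadjusted p under 0.05), beside 0.147% of all genes. The part of either list in the levels of Mt1, Mt2 or Slc39a14 was not tested.

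**Figure D5:**
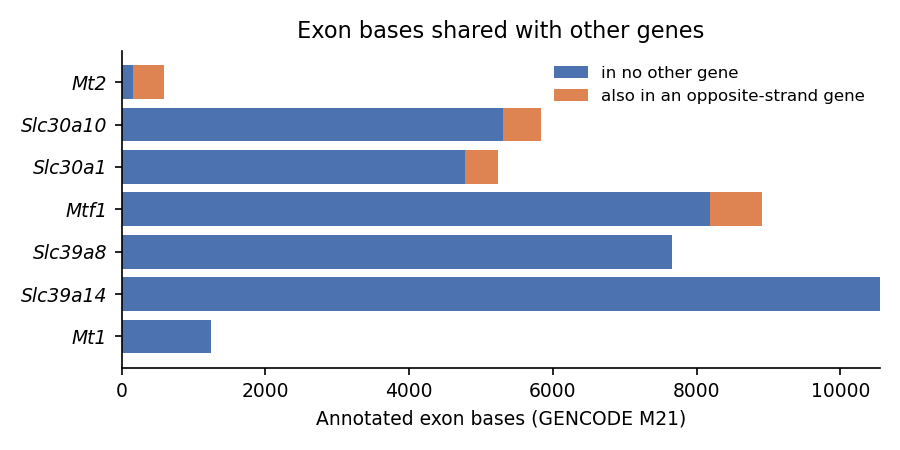
Exon bases of each of the 7 genes that lie in no other annotated gene and those that also lie in a gene on the opposite strand. Mt2 shares 432 of 588 bases, Mtf1, Slc30a1 and Slc30a10 8.10%, 8.92% and 9.13%, and Mt1, Slc39a8 and Slc39a14 none.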

How the data were processed

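Poly-A RNA from liver was made into NEBNext Ultra libraries and sequenced as paired ends. Per the submitters' processing notes, HISAT2 2.0.5 and featureCounts 1.5.0-p3 were used with mm10 (GRCm38). Whether counting used strand is not given in the sources used here. The authors deposited FPKM per gene. The authors tested genes with DESeq2, which was not repeated here. At the same thresholds the paper reports many times more genes passing in SZ-A against HFD mice than the 15 found here with limma. The counts of genes passing in that comparison therefore hold for the fit used here. FPKM times gene length gave whole fragments for 100% of values (tolerance 0.05 of a fragment), and these fragments were tested with voom, as an alternative to the fit on the deposited unit. The factor between the authors' library size and the fragments on genes was 0.9325 to 1.1414. It was 0.998 to 1.14 in HFD mice and 0.933 to 1.02 in NC mice.

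Here log2(FPKM + 0.1) of genes averaging 1 FPKM or more over the 18 mice was fitted with limma 3.58.1 in R 4.3.3 (lmFit, eBayes with trend), each comparison on its own 12 mice, with Benjamini-Hochberg adjustment over all 10216 genes. The exact permutation tests were two-sided over all regroupings of 12 mice (smallest possible p 0.00216), unadjusted, and those of r used all pairings. The fit was tested on simulated data. Groups came from sample titles, and lists of other genes name those that passed, at most 4 each by adjusted p. The 5 genes most like a member were ranked by Pearson r over 18 mice. Promoter matches were first counted in 250 bases, and the 300-base count was added after that result had been seen. The members and lists were chosen with earlier results of these data known.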

Additional observations from a re-analysis of the deposited data

Results flagged for a closer look

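Of 21 groups of values (7 genes in 3 groups of 6 mice), 4 (19.0%) had a mouse far from the others, by the gap to its nearest neighbour over the range of the group. Chance flags about 1 in 20 groups where values are normally distributed, which was not tested here. On the log2(FPKM + 0.1) scale 1 of the 4, Mtf1, was still past the limit (gap over range 0.706), and the gaps of the others were 0.483 for Mt1, 0.578 for Mt2 and 0.564 for Slc30a10. Mt1 was 1250 FPKM in NC5 and Mt2 38.5 FPKM in NC5, each the highest of its group, and Mtf1 was 1.39 FPKM in NC5, the lowest. Slc30a10 was 5.22 FPKM in HFD3, the highest of the HFD mice. NC5 was the highest NC mouse in 33.6% of all genes tested, a count made after its metallothionein values were seen.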

How the results depend on the processing

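The fall of Slc30a10 in HFD against NC mice kept its direction in 22 alternatives (-1.01 to -0.67) and passed in 21, with limma adjusted p of 0.00397 to 0.0643. The rise of Slc39a14 in SZ-A against NC mice kept its direction in 23 (0.32 to 0.45) and passed in 13, with limma adjusted p of 0.0142 to 0.211. The cause of the changes below was not tested.

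In HFD against NC mice 0 of the 7 genes passed with no filter on low values, 0 of the 3 then tested with a mean FPKM of at least 5, and 0 at a fold change over 2. With any 1 mouse left out 1 passed. In SZ-A against NC mice 0 passed with no filter, with a common sum, with all 18 mice in one fit, with the replicate block and at a fold change over 2, and 0 to 1 with 1 mouse left out. Without SZ-A5 the gene passing was Slc30a10. Of the other zinc genes 2 passed in HFD against NC mice, 1 with no filter, 1 without the trend, 0 with the replicate block and 0 at a fold change over 2, and 0 to 2 with 1 mouse left out (0 without NC1, NC4, HFD1 or HFD4). In SZ-A against NC mice 0 to 1 passed with 1 mouse left out (1 without SZ-A2). The replicate numbers did not pair the mice: correlations of same-numbered mice ran from -0.12 to 0.29, over 0.1 in 0, 1 and 2 of 6 pairs, and 1, 1 and 3 of 6 mice correlated best with their own number. With the replicate block Slc39a14 in SZ-A against NC mice had a limma adjusted p of 0.0664, and 1647, 0 and 922 genes passed in the 3 comparisons.

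No difference that passed the test reversed. In HFD against NC mice a common sum gave Mt2 0.12, Mtf1 0.11, Slc30a1 0.091 and Slc39a8 0.10, sample weights gave Mt1 0.37 and Mt2 0.75, and voom gave Mt2 0.066. With 1 mouse left out Mt1 ran from -0.65 to 0.24, Mt2 from -0.44 to 0.74 and Slc30a1 from -0.20 to 0.016. In SZ-A against HFD mice a common sum gave Mtf1 -0.12, Slc30a1 -0.080 and Slc39a14 -0.039, and with 1 mouse left out Mtf1 ran from -0.0012 to 0.11 and Slc39a14 from -0.021 to 0.30. In SZ-A against NC mice Mtf1 ran from -0.16 to 0.023 and Slc30a1 from -0.10 to 0.11 with 1 mouse left out, and Slc30a1 was 0.010 with a common sum, 0.11 with sample weights and 0.0009 with voom. The r of Mt1 and Slc39a14 in HFD mice was -0.043 without that scaling and 0.023 with a common sum, an alternative added after the data were seen.

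Over all genes, 15 passed in SZ-A against HFD mice, 0 with no filter, 26 with a mean FPKM of at least 5, 216 with a common sum, 35 with all mice in one fit, 233 with sample weights, 31 with voom and 2 to 49 with 1 mouse left out. In HFD against NC mice 1271 passed with a mean of at least 5 FPKM and 2011 with voom, and in SZ-A against NC mice 564 with no filter, 1682 with sample weights and 994 with voom. The common sum moved the median of all genes to 0.15 in HFD against NC and to -0.15 in SZ-A against HFD mice. Mt2, at 2 to 367 fragments, is the gene that depth limits most.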

Other observations

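The 5 genes whose log2 values were most like those of Mt1 over the 18 mice were Mt2 (r = 0.89), Zc3hc1 (0.89), Nr1h2, an oxysterol receptor (0.84), Alg1, an enzyme of N-glycan assembly (0.83), and Map1lc3b of the autophagosome (0.83). Without NC5 their r were 0.81, 0.82, 0.71, 0.76 and 0.68. Of these Zc3hc1 averaged 1.59 FPKM and Map1lc3b 21.1 FPKM. For Slc30a10 they were Slc16a1, a monocarboxylate transporter (0.91), Pxmp4 of the peroxisomal membrane (0.91), Clpx of a mitochondrial protease (0.89), Arl4a (0.88) and Elovl3, a fatty acid elongase (0.87). Slc16a1 averaged 25.0 FPKM in NC mice, 13.1 in HFD mice and 13.7 in SZ-A mice, and Elovl3 169 in NC mice, 46.2 in HFD mice and 54.1 in SZ-A mice. For Slc39a14 they were Serp1 of the endoplasmic reticulum stress response (0.89), the co-chaperone St13 (0.89), Tmem41b (0.88), Kyat3 (0.88) and Arhgef26 (0.87). These r span 3 groups and are the highest of 10216 genes, so they are a description with no test.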
